A study of Mus musculus with 24 samples.

Results

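The genes described here encode proteins of the red cell membrane and its transport functions: Slc4a1, Ank1, Kel, Rhag, Epb42, Sptb, Car2 and Tfrc. Every probe of the non-normalized bead array table whose gene symbol was 1 of these 8 was taken, which gave 16 of 25697 probes. Of these, 11 probes of 6 genes were above background on enough arrays to be tested, among 11008 genes and unnamed probes tested in all. The study profiled RNA of the unsegmented caudal end of C57Bl/6 mouse embryos on 24 Illumina bead arrays, 4 in each of 6 groups. The groups were Srf knockout and control embryos, each at 3 stages (E8.5, then E8.75, then E9.0). Knockout embryos are labelled Srf(-/-) and carry the conditional SRF(flex1) allele with T:cre, a Cre expressed in the primitive streak and its mesoderm descendants. The controls are titled wt, but their genotype label is Srf(+/-), so per that label they lack 1 working Srf allele. In the stated cross both parents carried T:cre on both chromosomes, so the Cre is shared by all 6 groups. The labels do not say whether a replicate is 1 embryo, a pool or a litter, so a p-value covers the spread of these 4 arrays a group and that spread can be technical.

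In a mature red cell, the anion exchanger band 3 (Slc4a1) spans the membrane and is tied by ankyrin (Ank1) and by the product of Epb42 to a spectrin network that contains beta spectrin (Sptb). Carbonic anhydrase 2 (Car2) interconverts CO2 and bicarbonate, which band 3 exchanges for chloride, while Rhag forms the core of the Rh complex and Kel carries the Kell blood group antigens. Transferrin receptor (Tfrc) takes up iron and is used by most dividing cells, with a high demand in erythroblasts. In mouse embryos of these stages the first red cells are primitive erythroblasts, which form in yolk sac blood islands and enter the embryo with the circulation.

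All values below are normalized log2 signals, and a probe counts as above background where its detection p is under 0.05. The arrays of E8.75 were brighter, with a median raw intensity of 145.1 to 173.3, than those of E8.5 (36.8 to 45.9) and E9.0 (36.8 to 38.9), so brightness and the E8.75 stage cannot be told apart. Between 11329 and 13685 probes were above background on an array. Srf itself ranged from 8.18 to 8.67 on the knockout arrays and from 9.13 to 9.39 on the control arrays at E9.0, with no overlap. At E8.75 the Srf ranges overlapped, at 7.64 to 8.51 on knockout arrays against 8.10 to 9.89 on control arrays. All 6 tested markers of the caudal end (Cdx2, Tbx6, Wnt3a, Fgf8, Cyp26a1 and Hes7) were above background on every array at E9.0.

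At E9.0 all 6 tested members were lower in knockout than in control caudal ends, and in each of them the lowest control array lay above the highest knockout array. Over all genes, 5.9% were called lower at E9.0 and 11.4% had every knockout array below every control array. Called means a Benjamini-Hochberg adjusted p under 0.05 in a limma model of all 24 arrays. The 6 log2 differences ran between -4.30 for Slc4a1 and -0.69 for Tfrc, with a median of -2.60. The median was -1.85 with an offset of 50 and -1.70 in the deposited values. In bulk tissue, fewer red cells and less of these RNAs per cell cannot be told apart.

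**Figure D1:**
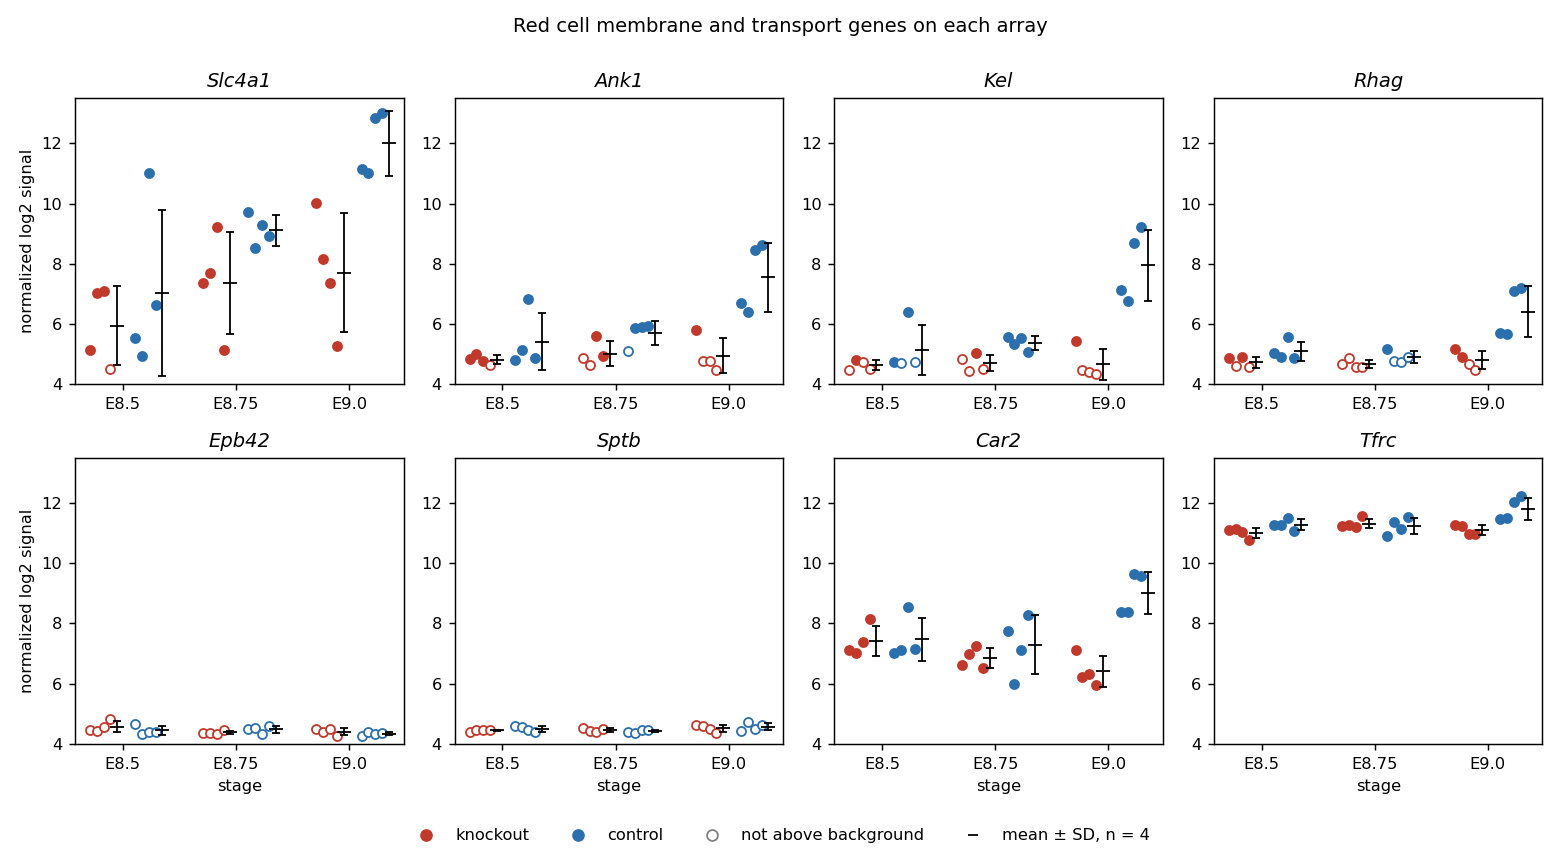
Normalized log2 signal (vertical axis) of the brightest probe of each of the 8 genes on each of the 24 arrays, by stage (horizontal axis), with knockout in red and control in blue; open points were not above background, and bars are mean ± SD with n = 4. At E9.0 the control arrays of Slc4a1, Ank1, Kel, Rhag, Car2 and Tfrc all sit above the knockout arrays, while Epb42 and Sptb stay between 4.26 and 4.83 on every array.

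Slc4a1 (chromosome 11) encodes band 3, the chloride and bicarbonate exchanger that also anchors the skeleton. At E9.0 its signal was 10.03, 8.17, 7.36 and 5.27 on the knockout arrays, against 11.14, 11.01, 12.85 and 13.02 on the control arrays. The knockout arrays spread widely, with replicate 1 high and replicate 4 low, yet none reached the lowest control array. The means were 7.71 ± 1.98 in knockout and 12.01 ± 1.08 in control caudal ends (SD, n = 4 each). The log2 difference was -4.30 ± 1.05 (SE), 19.6-fold lower in knockout (limma adjusted p = 0.00763). With replicate 4 of the knockout arrays left out it came to -3.48, and with replicate 1 left out to -5.07. In raw intensity, the same probe read 43.4 to 535.0 on knockout arrays and 1131 to 4147 on control arrays.

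Ank1 (chromosome 8) encodes the erythroid ankyrin that couples band 3 to spectrin. Its signal at E9.0 was 5.79, 4.79, 4.76 and 4.46 on knockout arrays, of which replicate 1 alone was above background, against 6.71, 6.41, 8.46 and 8.62 on control arrays. The groups did not overlap, and control replicates 3 and 4 were the high pair. The difference was -2.60 ± 0.43 (SE; limma adjusted p = 0.00033), with its size less certain because 3 of 4 knockout arrays were at background.

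Ank1 was read by 5 probes, and 3 of them passed the filter. With every probe tested on its own, the second bright probe gave -2.64 ± 0.39 (SE; limma adjusted p = 0.000114). The third was above background on 0 of 4 knockout and 4 of 4 control arrays, and its signal was at least 1.89-fold lower in knockout (limma adjusted p = 0.0071). No knockout array of any stage was above background for it, so it passed the filter through control arrays alone. Its direction is therefore not separate support. The remaining probes ILMN_2609011 and ILMN_1254421 were above background on none of the 24 arrays. The Ank1 result thus rests on the first and second probes, which share a direction.

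Epb42 (chromosome 2) and Sptb (chromosome 12) complete the band 3 and ankyrin assembly, and each had 1 probe. Epb42 lay between 4.26 and 4.50 on knockout arrays and between 4.27 and 4.39 on control arrays at E9.0. Sptb lay between 4.36 and 4.63 on knockout arrays and between 4.44 and 4.71 on control arrays at E9.0. Neither probe was above background on any of the 24 arrays, so no difference can be read for these 2 members and they were not among the genes tested.

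Kel (chromosome 6) encodes the Kell glycoprotein, a membrane metallopeptidase of red cells. At E9.0 it was 5.44, 4.46, 4.40 and 4.33 on knockout arrays, against 7.14, 6.78, 8.69 and 9.21 on control arrays. Knockout replicate 1 was the sole knockout array above background, and it still lay below every control array. The means were 4.66 ± 0.52 in knockout and 7.96 ± 1.18 in control caudal ends (SD, n = 4 each), a difference of -3.30 ± 0.40 (SE; limma adjusted p = 8.93e-06). Among the members this was the smallest adjusted p, but the size is less certain, and over the alternative settings it was as small as -1.94. Kel was above background on 1 of 4 knockout arrays at each stage. It thus passed the filter of 4 arrays only with its control arrays, so its direction is not independent of the filter.

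Rhag (chromosome 17, which also holds Srf) encodes the Rh-associated glycoprotein, a channel-like protein for ammonium and gases. Its brightest probe gave 5.17, 4.91, 4.66 and 4.47 on knockout arrays at E9.0, against 5.71, 5.67, 7.09 and 7.20 on control arrays. Knockout replicates 1 and 2 were above background, and control replicates 3 and 4 stood above the other pair. The difference was -1.62 ± 0.26 (SE; limma adjusted p = 0.000254). All 3 Rhag probes passed the filter and were lower in knockout. Tested on its own, the second gave -1.53 ± 0.29 (SE; limma adjusted p = 0.00127). The third, at background on all 4 knockout arrays, was at least 2.87-fold lower (limma adjusted p = 0.000303). It passed the filter through control arrays alone, so its direction is not separate support.

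**Figure D2:**
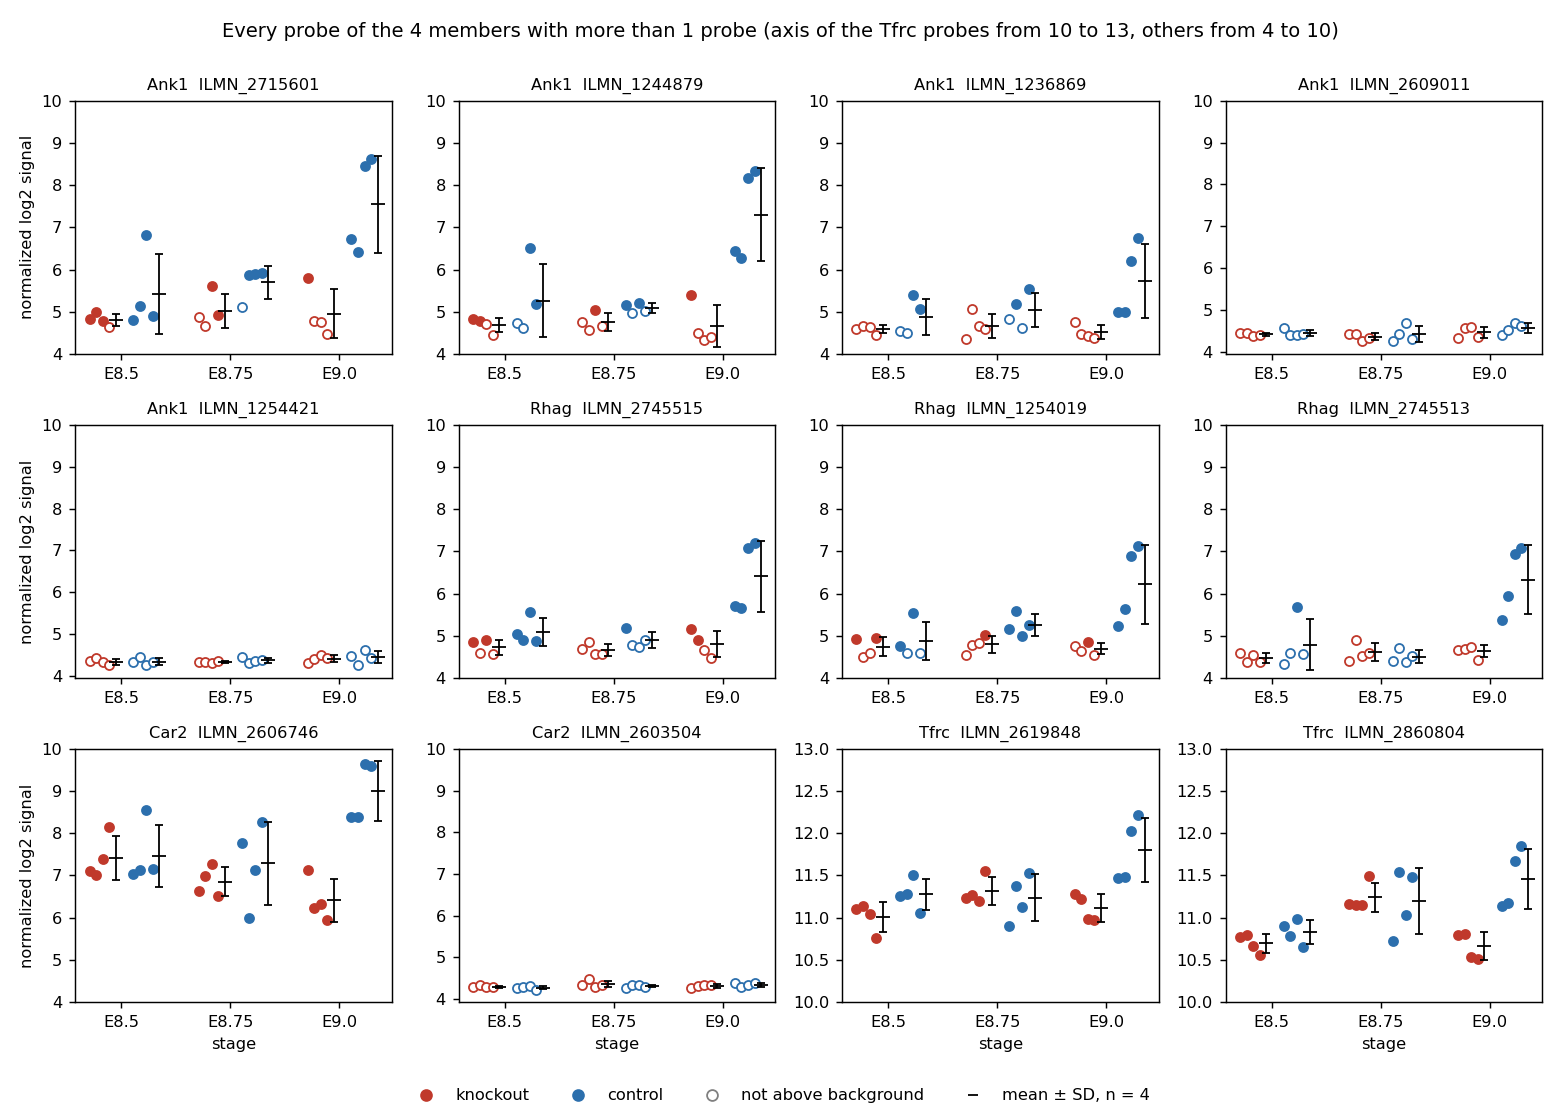
Normalized log2 signal (vertical axis) of all 12 probes of Ank1, Rhag, Car2 and Tfrc on each array by stage (horizontal axis), with knockout in red, control in blue, open points not above background, and mean ± SD with n = 4. The 9 probes above background at E9.0 show the control arrays above the knockout arrays, and 2 Ank1 probes and 1 Car2 probe stay at background throughout. Among the 9, ILMN_1236869 of Ank1 and ILMN_2745513 of Rhag were above background on control arrays alone, so their direction is not separate support.

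Kel and Rhag were lower in knockout at E9.0, as were the other tested members. The bases before the Kel and Rhag starts are shown because GATA motifs, the recognition letters of the erythroid factor Gata1, lie close to both. The windows run from 250 bases before to 50 bases after the start (RefSeq, GRCm38.p6), at chr6:41704276-41704575 on the minus strand for Kel and chr17:40810899-40811198 on the plus strand for Rhag. Capitals mark the motif letters AGATAA or TGATAA, or the forms AGATAG or TGATAG, on either strand.
Kel: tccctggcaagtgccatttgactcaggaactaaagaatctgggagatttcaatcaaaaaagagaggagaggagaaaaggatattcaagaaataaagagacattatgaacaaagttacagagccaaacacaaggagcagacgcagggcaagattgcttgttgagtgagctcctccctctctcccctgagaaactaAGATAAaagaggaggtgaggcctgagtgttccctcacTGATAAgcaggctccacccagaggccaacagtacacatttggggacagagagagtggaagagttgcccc
Rhag: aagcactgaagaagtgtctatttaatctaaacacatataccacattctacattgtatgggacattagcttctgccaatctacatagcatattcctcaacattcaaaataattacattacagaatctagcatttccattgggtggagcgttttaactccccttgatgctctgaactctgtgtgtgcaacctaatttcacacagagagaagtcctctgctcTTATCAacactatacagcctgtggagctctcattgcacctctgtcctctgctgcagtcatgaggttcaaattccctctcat
Kel holds 2 such motifs, which begin 56 and 19 bases before the start, and Rhag holds 1, on the opposite strand, 31 bases before it. Promoters were matched for 5 of the 8 members, with none for Slc4a1, Ank1 and Car2. Epb42 and Sptb, which were at background, also hold 1 motif each, while Tfrc, called lower as well, holds 0. A motif of this kind occurs in 29.8% of 32851 promoter windows of the same length, so these matches are a description of the letters alone. The CACCC-type motif CCNCNCCC, searched on both strands, is in 49.5% of windows, with 5 and 3 copies in the overlapping windows of the Tfrc starts, 3 in Sptb and 0 in Kel, Rhag and Epb42. The CArG box, the motif bound by Srf, is in 1.63% of windows and in 0 of the 6 member windows.

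Car2 (chromosome 3) encodes the cytosolic carbonic anhydrase that is abundant in red cells. At E9.0 its signal was 7.13, 6.24, 6.32 and 5.95 on knockout arrays, against 8.39, 8.40, 9.65 and 9.59 on control arrays. All 8 arrays were above background and the groups were separated by more than 1 log2 unit. Car2 was 6.05-fold lower in knockout caudal ends, a log2 difference of -2.60 ± 0.41 (SE; limma adjusted p = 0.000227). A second Car2 probe was above background on none of the 24 arrays.

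Tfrc (chromosome 16) was bright on all 24 arrays with both of its probes. At E9.0 it was 11.28, 11.22, 10.98 and 10.97 on knockout arrays, against 11.47, 11.49, 12.02 and 12.22 on control arrays. The gap between the groups was narrow, but no array crossed it. The difference was -0.69 ± 0.16 (SE), 1.61-fold lower in knockout (limma adjusted p = 0.00618), and the other Tfrc probe gave -0.79 ± 0.17 (SE; limma adjusted p = 0.00313).

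The arrays of a group did not vary independently from member to member at E9.0. Knockout replicate 1 was the highest knockout array for all 6 members and replicate 4 the lowest for all 6. On the control side, replicates 3 and 4 exceeded replicates 1 and 2 for every tested member. The mean of the 6 members was 7.47, 6.63, 6.41 and 5.91 on the knockout arrays, against 8.43, 8.29, 9.79 and 9.98 on the control arrays.

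Markers of primitive erythroid cells moved with these members. Of 14 markers 13 were tested, and 10 of 13 were called lower in knockout at E9.0, where 5.9% of all genes were. The median log2 difference of the 13 markers was -2.90, against a median near 0 (0.0056) over all genes. Their summed linear signal ran from 1591 to 46026 on knockout arrays and from 85838 to 125824 on control arrays. The marker mean was 8.16, 7.22, 6.76 and 5.80 on knockout arrays, against 8.98, 9.08, 10.18 and 10.28 on control arrays, the same order of arrays that Slc4a1 showed within the knockout group. Hemgn was above background on 0 of 4 knockout arrays, while the globins Hba-x, Hbb-bh1, Hbb-y and Hba-a1 were above it on all 4. The part of red cell number in the members' differences was not tested.

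**Figure D3:**
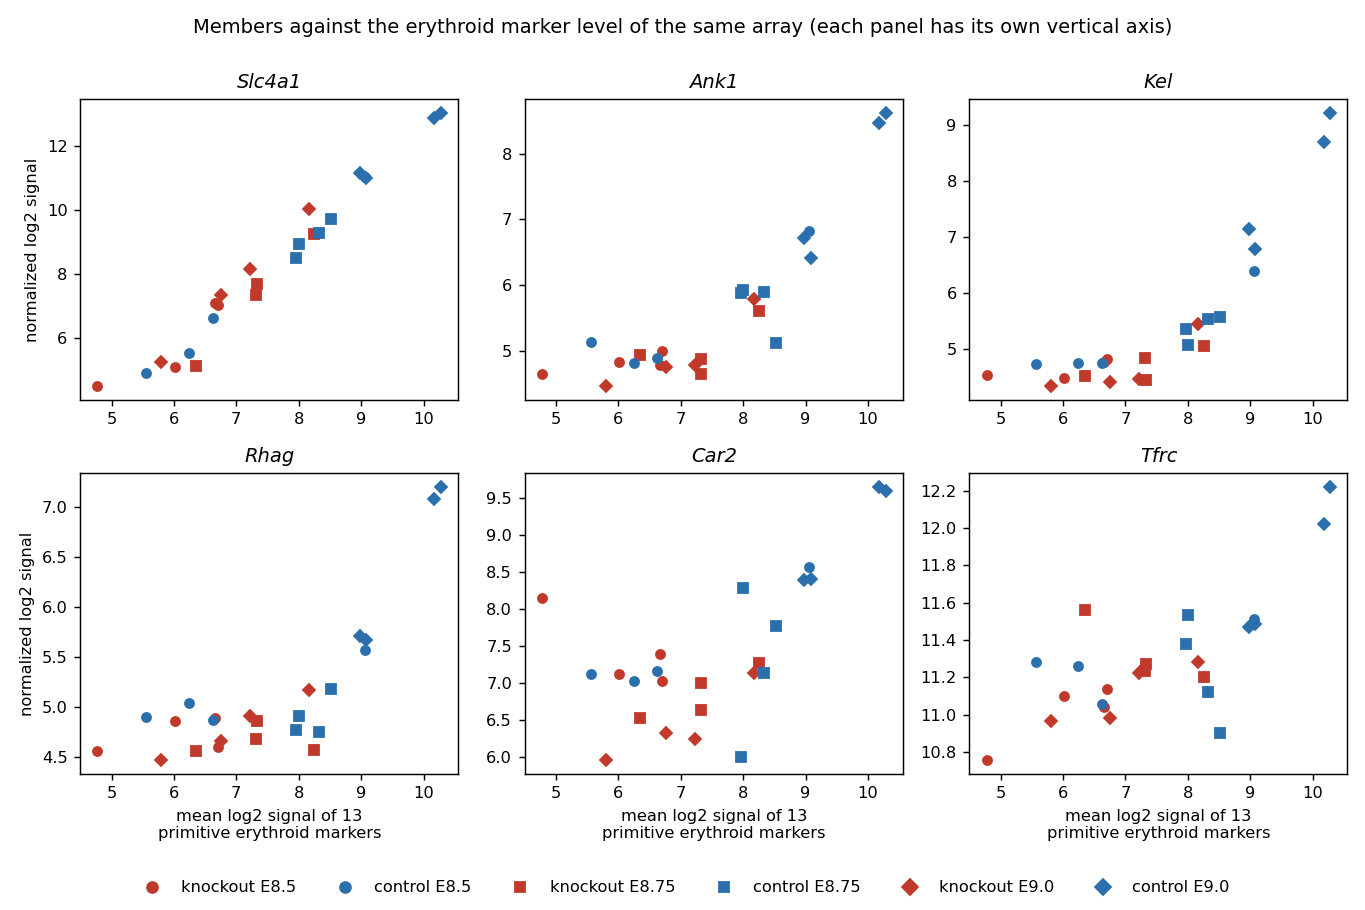
Normalized log2 signal of each tested member (vertical axis, its own range in each panel) against the mean log2 signal of 13 primitive erythroid markers (horizontal axis) on the same array, 24 points per panel, knockout in red and control in blue, with circles for E8.5, squares for E8.75 and diamonds for E9.0. The 2 control E9.0 arrays with marker means of 10.18 and 10.28 lie at the upper right of every panel, and the knockout E8.5 array with a marker mean of 4.78 has a Car2 signal of 8.15.

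Of 9 endothelial markers tested, 2 were called lower at E9.0, where 5.9% of all genes were. They were Emcn at -2.28 and Eng at -0.61 (limma adjusted p = 0.000181 and 0.0453). The summed signal ranges of the 9 overlapped, 2750 to 5291 on knockout and 3695 to 4720 on control arrays. None of the 6 caudal end markers and none of the 8 yolk sac endoderm markers tested was called at E9.0. Of those 8, only 3 to 5 were above background on a knockout array and 3 to 4 on a control array. A difference in the others could hardly show. For macrophages and megakaryocytes only Mrc1 and Itga2b passed the filter, and neither was called. Mrc1 was at background on every E9.0 array, so no difference can be read for it at that stage.

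At E8.5 none of the 6 tested members was called, where 0.00908% of all genes were called lower, and none had an unadjusted limma p under 0.05. Slc4a1 was 5.13, 7.04, 7.11 and 4.52 on knockout arrays, the last at background, against 5.55, 4.93, 11.02 and 6.63 on control arrays. Apart from control replicate 3, the E8.5 Slc4a1 values of the groups lay over each other. That replicate was the highest E8.5 control array for all 6 members and carried the highest erythroid marker mean of its stage, 9.06. Ank1 at E8.5 was 4.83, 5.0, 4.79 and 4.65 on knockout arrays, against 4.81, 5.13, 6.83 and 4.89 on control arrays. Kel was 4.47, 4.81, 4.75 and 4.52 on knockout arrays, against 4.75, 4.72, 6.39 and 4.75 on control arrays. Both genes thus lay near background apart from that one control array, and Kel was above background on 1 of 4 knockout and 2 of 4 control arrays. Tfrc ranged from 10.76 to 11.14 on knockout and from 11.06 to 11.51 on control arrays, and Rhag from 4.56 to 4.89 on knockout and from 4.87 to 5.56 on control arrays, each with overlap. The log2 differences at E8.5 were -1.09 ± 1.05 for Slc4a1, -0.60 ± 0.43 for Ank1, -0.51 ± 0.40 for Kel, -0.37 ± 0.26 for Rhag, -0.05 ± 0.41 for Car2 and -0.27 ± 0.16 for Tfrc (SE). Without control replicate 3 the sign turned for Slc4a1, to 0.24, and for Car2, to 0.31.

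Car2 at E8.5 was 7.12, 7.02, 7.38 and 8.15 on knockout arrays, against 7.03, 7.12, 8.56 and 7.16 on control arrays. Its high values fell on 2 arrays that were far apart in Slc4a1, knockout replicate 4 with 4.52 and control replicate 3 with 11.02. Yolk sac endoderm markers were above background in full on every E8.5 array, 8 of 8. Their summed signals were 3854 to 25640 on knockout and 4821 to 15387 on control arrays. The sum was 7508 on knockout replicate 4 and 5713 on control replicate 3. It was highest on replicate 1 of each group, where Car2 was 7.12 in knockout and 7.03 in control. The part of these markers in the Car2 signal was not tested.

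At E8.75 again 0 of 6 members were called, where 0.164% of all genes were called lower, and none had an unadjusted limma p under 0.05. Slc4a1 was 7.35, 7.71, 9.24 and 5.14 on knockout arrays, against 9.71, 8.52, 9.30 and 8.93 on control arrays, with knockout replicate 3 inside the control range. Kel was 4.83, 4.45, 5.04 and 4.51 on knockout arrays, against 5.56, 5.35, 5.52 and 5.07 on control arrays. The Kel groups did not overlap, with knockout replicate 3 and control replicate 4 nearly touching, as was so for 1.98% of all genes in that direction, and 3 of the 4 knockout values were at background. Car2 was 6.63, 6.99, 7.27 and 6.52 on knockout arrays, against 7.76, 5.99, 7.13 and 8.28 on control arrays, so control replicate 2 was the lowest of all 8. Tfrc was 11.24, 11.27, 11.20 and 11.56 on knockout arrays, against 10.90, 11.38, 11.12 and 11.53 on control arrays, with the groups intermixed. The differences were -1.76 ± 1.05 for Slc4a1, -0.68 ± 0.43 for Ank1, -0.67 ± 0.40 for Kel, -0.24 ± 0.26 for Rhag, -0.44 ± 0.41 for Car2 and 0.08 ± 0.16 for Tfrc (SE). That Rhag probe was above background on 0 of 4 knockout and 1 of 4 control arrays at E8.75. The Rhag probe ILMN_1254019, above background on 1 of 4 knockout and 4 of 4 control arrays, gave -0.46 ± 0.29 (SE; limma adjusted p = 0.582), while ILMN_2745513 was at background on all 8. At this stage 5 of 8 yolk sac endoderm markers were called higher in knockout, where 0.363% of all genes were, with sums of 2113 to 13634 on knockout and 418 to 1535 on control arrays, and the macrophage marker Mrc1 was called higher too (0.94 ± 0.13, SE; limma adjusted p = 0.000361). None of 13 erythroid markers was called by limma (Alas2, Hemgn and Gfi1b had an unadjusted p under 0.05), though 12 had negative differences (median -1.03) and 5 had every knockout array below every control array. The part of these cell types in the members' values was not tested.

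**Figure D4:**
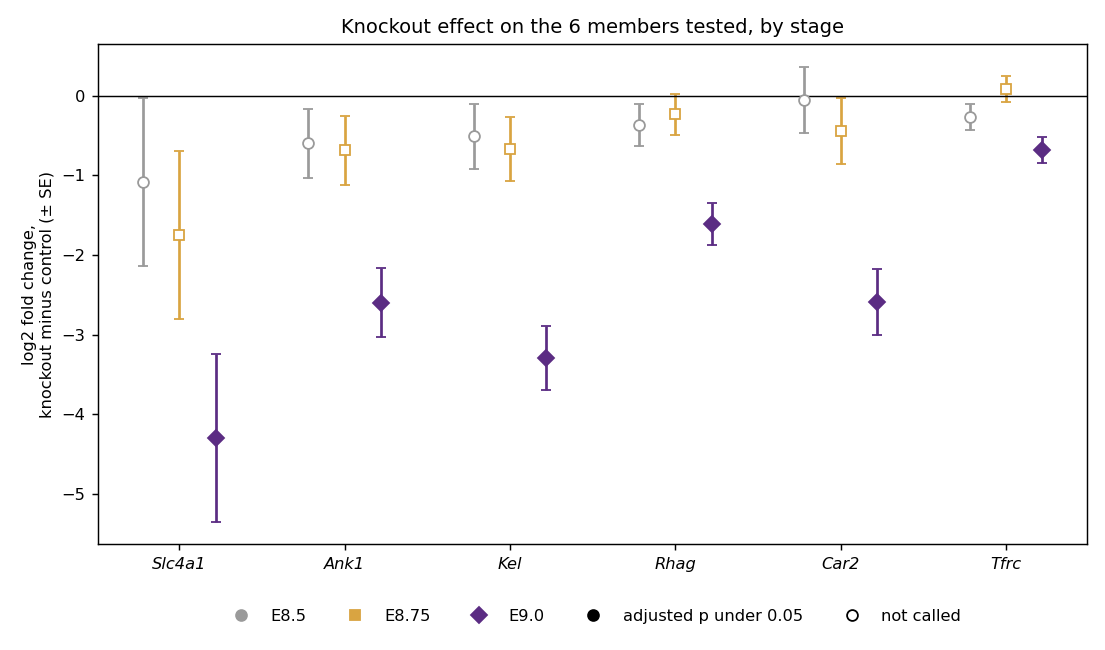
Log2 fold change of knockout minus control with its SE (vertical axis) for the 6 tested members (horizontal axis) at E8.5 (circles), E8.75 (squares) and E9.0 (diamonds); filled points have a limma adjusted p under 0.05. All 6 members are filled at E9.0, from -4.30 to -0.69, and none is filled at the earlier stages.

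Whether the knockout effect itself differed between E9.0 and E8.5 was tested as an interaction. Kel, at -2.79 ± 0.57 (SE; limma adjusted p = 0.0192), and Car2, at -2.55 ± 0.59 (SE; limma adjusted p = 0.0376), were called, 2 of 6 members, where 0.263% of all genes were called in that direction. Kel was above background on 1 of 4 knockout arrays at each of these stages and on 2 of 4 control arrays at E8.5. A knockout effect on Kel at E8.5 could thus hardly show. Its change between the stages was 2.80 in control and 0.02 in knockout. Leaving out single arrays ended the Kel call for control E8.5 replicates 2 and 4 and knockout E9.0 replicate 3, with adjusted p up to 0.0529. For Car2 the adjusted p reached 0.1 when control E9.0 replicate 4 was left out, and 14 of 35 alternative settings ended the call. These were leaving out E8.5 control replicates 1, 2 or 4, E8.5 knockout replicates 1, 3 or 4, E9.0 control replicates 3 or 4, or E9.0 knockout replicates 2, 3 or 4, and median scaling, no filter and the replicate block. Median scaling also ended the Kel call. Ank1 gave -2.0 ± 0.62 (SE; limma adjusted p = 0.131) and Rhag -1.25 ± 0.37 (SE; limma adjusted p = 0.111). For Slc4a1 the difference was -3.21 ± 1.49 (SE; limma adjusted p = 0.385) and for Tfrc -0.42 ± 0.23 (SE; limma adjusted p = 0.501). None of these 4 genes was called, but Ank1 was called with array weights (adjusted p = 0.0276) and without control E8.5 replicate 3 (0.0301), and Rhag with array weights (0.0196) and without control E9.0 replicate 1 (0.0425) or 2 (0.0411).

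Averaged over the 3 stages, 5 of 6 members were called lower in knockout, where 3.48% of all genes were. They were Slc4a1 (-2.38), Kel (-1.49), Ank1 (-1.29), Car2 (-1.03) and Rhag (-0.74), while Tfrc, at -0.29 ± 0.09 (SE; limma adjusted p = 0.0579), was not called. Tfrc gained a call in 8 of 34 alternative settings, among them offset 50 (limma adjusted p = 0.0457) and the deposited values (0.0466).

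In control caudal ends, all 6 tested members were higher at E9.0 than at E8.5, where 12.2% of all genes were called higher. Kel rose by 2.80 ± 0.40 log2 units (SE; limma adjusted p = 2.16e-05) and Rhag by 1.32 ± 0.26 (SE; limma adjusted p = 0.000623), and every E9.0 control array exceeded every E8.5 control array for these 2 genes, as was so for 15.7% of all genes. For Slc4a1 the rise was 4.97 ± 1.05, for Ank1 2.14 ± 0.43, for Car2 1.54 ± 0.41 and for Tfrc 0.52 ± 0.16 (SE; limma adjusted p between 0.000799 and 0.0202), with E8.5 replicate 3 lying within the E9.0 range. The Tfrc call was lost without control E8.5 replicate 4 (adjusted p = 0.0758), E9.0 replicate 3 (0.0729) or E9.0 replicate 4 (0.102), and under median scaling (0.466). In the same comparison 12 of 13 erythroid and 5 of 9 endothelial markers were called higher. All 8 of 8 yolk sac endoderm markers were called lower, where 1569 of 11008 genes were. The part of these cell types was not tested.

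In knockout caudal ends, 0 of 6 members were called between E9.0 and E8.5, where limma called 26.7% of all genes in either direction. The changes were 1.76 ± 1.05 for Slc4a1, 0.13 ± 0.43 for Ank1, 0.02 ± 0.40 for Kel, 0.07 ± 0.26 for Rhag and 0.10 ± 0.16 for Tfrc (SE). Car2, the single member with an unadjusted p under 0.05 (0.023), changed by -1.01 ± 0.41 (SE; limma adjusted p = 0.0756). The 2 stage comparisons share no arrays with each other, but each shares its arrays with the genotype comparisons above.

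By group mean, the E9.0 controls ranked first for all 6 members. For Slc4a1 the E8.75 controls came next (9.11 ± 0.51), then the knockout groups at E9.0 (7.71 ± 1.98) and E8.75 (7.36 ± 1.69), the E8.5 controls (7.03 ± 2.75) and the E8.5 knockouts (5.95 ± 1.32; SD, n = 4 each), and from the second place down each group overlapped its neighbour. Car2 ended the other way, with the E9.0 knockouts lowest (6.41 ± 0.50) and the E8.5 knockouts (7.42 ± 0.51) beside the E8.5 controls (7.47 ± 0.73; SD, n = 4 each). For Tfrc the 5 other group means lay between 11.01 and 11.32.

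Likeness of pattern was measured as the root mean square difference between profiles centred on their own mean over the 24 arrays, as a description. The profiles were not scaled to their spread, so genes that change by unlike amounts lie far apart. Slc4a1 was thus 10849th in nearness to Ank1, 9728th to Kel and 10985th to Rhag. Counted from Slc4a1, Kel was 12th, Ank1 14th and Rhag 45th. Nearest to Slc4a1 among named genes were Alas2 (0.68 log2 units), which makes the first enzyme of erythroid heme synthesis, and the globin genes Hba-x (0.85) and Hba-a1 (0.86). Ank1 lay nearest to Klf1 (0.31), an erythroid transcription factor, to Kel (0.35) and to Ncf4 (0.39). Kel in turn lay nearest to Ank1 (0.35), Mrap (0.41) and Blvrb (0.45), a biliverdin reductase of red cells. The nearest genes to Rhag were Ube2l6 (0.24), Abcg4 (0.26) and Ncf4 (0.28). Car2 was closest to Nxpe2 (0.51), Tspan32 (0.52) and Hemgn (0.53). Tfrc was closest to Xk, Kcnn4 and Gata1, each at 0.21.

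Other genes of the red cell membrane, transport and iron supply were read from lists, and most of their members were not called at E9.0. The counts called in these lists stand against 5.9% of all genes called lower and 7.31% called higher. They include Tmod1, Ermap and Kcnn4, which at E9.0 were above background on control arrays alone, so the direction of these genes is not separate support. Of 9 further membrane skeleton genes 6 were tested, with a median of -0.27, and 1 was called lower and 1 higher. Tmod1, which caps actin filaments, was above background on no knockout array and at least 2.22-fold lower (limma adjusted p = 0.00193), while Add3, an adducin, was higher by 0.52 ± 0.15 (SE; limma adjusted p = 0.0188). The Add3 call was lost under median scaling and without control replicate 3 or knockout replicates 3 or 4 of E9.0. Another Add3 probe, tested on its own, gave 0.33 and was not called (limma adjusted p = 0.127). Add2 was below the filter.

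Among 14 red cell surface protein genes 9 were tested, with a median of -0.37, and 4 were called lower. The blood group protein genes Art4 (-1.41 ± 0.23, SE; limma adjusted p = 0.000262) and Icam4 (-0.97 ± 0.22, SE; limma adjusted p = 0.00381) were lower in knockout. Ermap, which carries the Scianna antigens, was at background on all knockout arrays and at least 2.47-fold lower (limma adjusted p = 0.000297). Xk, whose product is linked to Kell in the membrane, was lower by a difference of -0.54 ± 0.17 (SE; limma adjusted p = 0.0359), with overlapping groups, and its call was lost in 12 of 35 settings. These were leaving out control replicates 3 or 4 or any 1 of the 4 knockout arrays of E9.0, offset 50 (-0.25), the deposited values (-0.21), median scaling, no filter, only the groups compared and the replicate block (adjusted p = 0.0556).

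Of 22 transporter and channel genes 13 were tested, with a median of -0.04, and 2 were called lower. They were the potassium channel gene Kcnn4, at background on all knockout arrays and at least 1.41-fold lower (limma adjusted p = 0.00254), and the nucleoside transporter gene Slc29a1 (-0.68 ± 0.21, SE; limma adjusted p = 0.0333). The Slc29a1 call was lost in 8 of 35 alternative settings, which were leaving out E9.0 control replicates 3 or 4 or E9.0 knockout replicates 1, 3 or 4, no filter, only the groups compared and the replicate block (adjusted p = 0.0582).

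Of 17 iron genes 12 were tested, with a median of -0.38, and 3 were called lower. Abcb10, a mitochondrial transporter of erythroid cells, fell by 1.72 on the log2 scale (SE 0.26; limma adjusted p = 0.000108). Slc11a2, the iron transporter that acts after transferrin uptake, was lower by a difference of -0.55 ± 0.13 (SE; limma adjusted p = 0.00543). Ireb2, an iron-sensing RNA-binding protein, was at -0.46 ± 0.15 (SE; limma adjusted p = 0.0476) and lost its call in 18 of 35 alternative settings, 6 of them leaving out 1 E9.0 array.

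**Figure D5:**
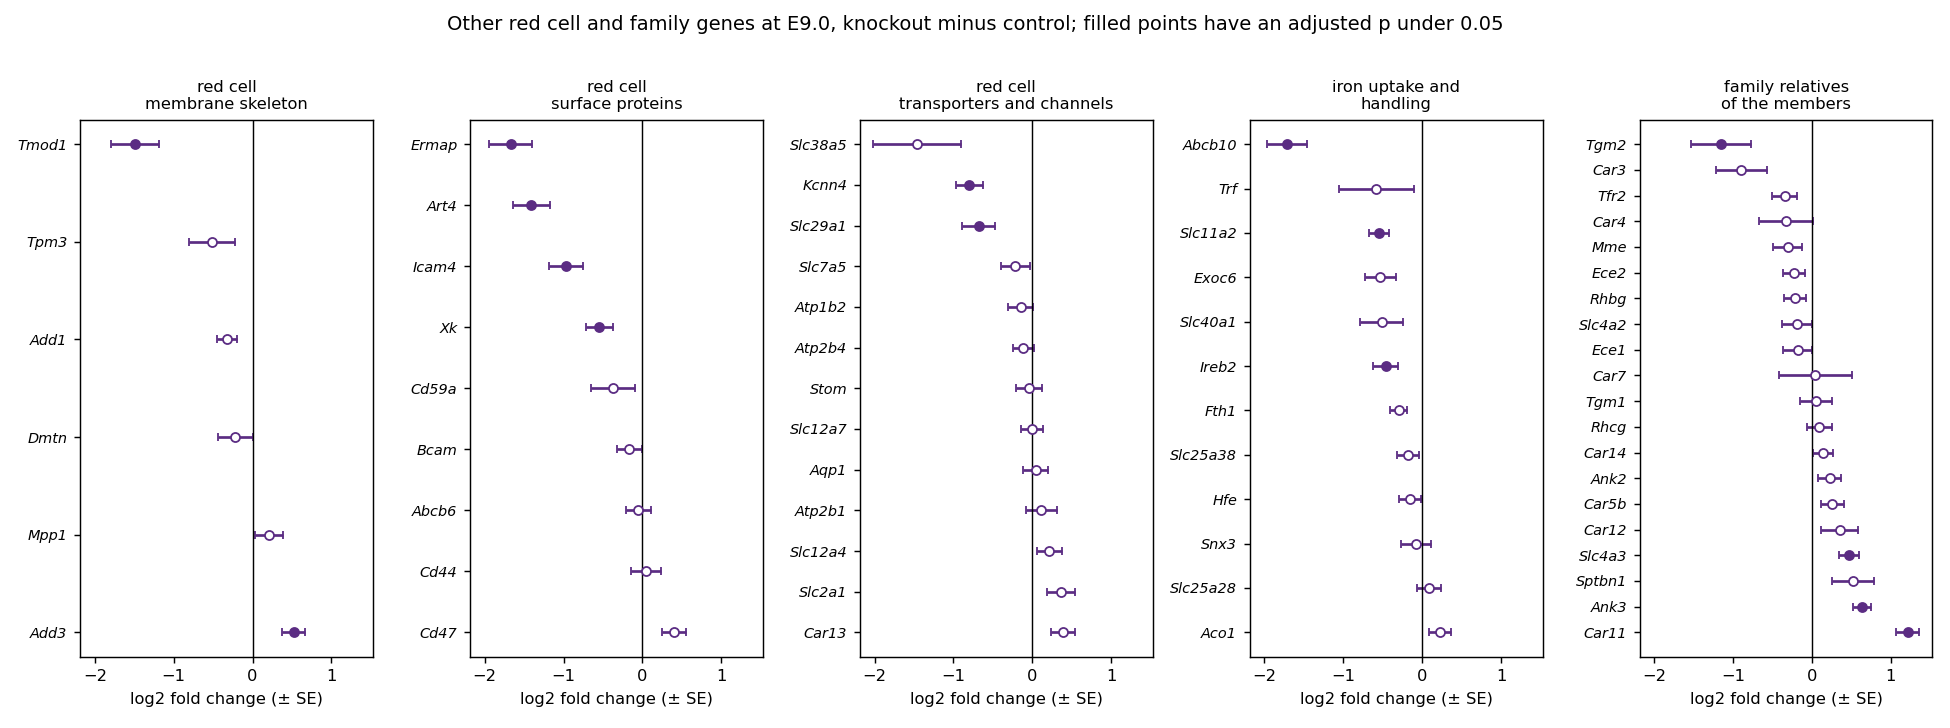
Log2 fold change of knockout minus control at E9.0 with its SE (horizontal axis) for the tested genes of 5 lists (one gene per row); filled points have a limma adjusted p under 0.05. Abcb10, Ermap, Tmod1 and Art4 lie lowest of the called genes outside the family relatives, and Car11 highest among those relatives at 1.21.

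Most family relatives of the members were not called at E9.0. Of 33 relatives 20 were tested, with a median of 0.05, and 1 was called lower and 3 higher, where 5.9% of all genes were called lower and 7.31% higher. The neuronal-type ankyrin gene Ank3 was higher by 0.63 ± 0.11 (SE; limma adjusted p = 0.000708), the exchanger gene Slc4a3 by 0.46 ± 0.13 (SE; limma adjusted p = 0.0164) and the carbonic anhydrase-related gene Car11 by 1.21 ± 0.15 (SE; limma adjusted p = 8.2e-06). Tgm2, a transglutaminase related in sequence to the Epb42 product, was at -1.16 ± 0.38 (SE; limma adjusted p = 0.0443). Car11 kept its call in every alternative setting. Ank3 lost its call under median scaling (0.41). Another Ank3 probe, tested on its own, gave 0.21 and was not called (limma adjusted p = 0.242). Slc4a3 lost its call under median scaling, with the mean of a gene's probes (0.28) and without control replicates 2 or 4 or knockout replicate 2 of E9.0. Tgm2 lost its call in 13 of 35 settings, among them leaving out E9.0 control replicates 3 or 4 or E9.0 knockout replicates 1, 3 or 4, median scaling, no filter and the replicate block (adjusted p = 0.0559), and 5 that left out 1 array of an earlier stage.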

How the data were processed

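Per the labels' protocols, Trizol RNA was cleaned with a column kit and DNase and labelled as biotinylated cRNA. The submitters' processing notes name GenomeStudio. The deposited non-normalized table holds mean bead intensity per probe on a linear scale and a detection p-value per probe and array, per the file headers. The deposited value table holds intensity with 1 shared distribution per column (medians 77.4 to 77.7), which served as an alternative. Array columns were matched to samples by title; control columns at E8.75 and E9.0 lack the genotype word and were matched by stage and replicate number, and no sample column was unused.

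The deposited intensity values were background corrected by normexp and quantile normalized with neqc (limma 3.58.1 in R 4.3.3), which read the negative controls out of the detection p and added an offset of 16 before log2. A probe was kept if 4 or more arrays had a detection p under 0.05 (14927 probes), and the brightest probe stood for each symbol, with symbols updated through the RefSeq gene table (GRCm38.p6; 10131 of 10135 symbols found). One limma model of 6 group means gave moderated tests, adjusted over 11008 features in each of 7 comparisons; it was tested on simulated data. Where no array of a group was above background, a fold is a bound against the lowest detected signal of those arrays.

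Members and lists were chosen with earlier results of these data known. Named were all members, other listed red cell genes and relatives called at E9.0 (at most 12, by size, beside every called relative), and the 3 named genes nearest to each member. Most same-numbered replicates did not deviate together: of 12 knockout and control pairs 2 correlated above 0.1 (range -0.26 to 0.40). Both were at E8.5, replicate 1 (0.40) and replicate 3 (0.21), so pairing at that stage stays possible. The numbers were not used as pairs in the main model, and a replicate block was an alternative. Array number, 4 per group, limits the precision.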

Additional observations from a re-analysis of the deposited data

Results flagged for a closer look

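Each tested member and group gave 1 set of 4 arrays, 36 in all. An array was marked where its gap to the nearest of the others exceeded Dixon's 95% critical share of the set's whole range. Chance marks about 1 in 20 independent sets, but here the members of a group were read on the same 4 arrays. In all 5 were marked, a count that cannot be set against that share. Kel on knockout E9.0 replicate 1 stood high at 5.44, with the next array at 4.46. Control E8.5 replicate 3 stood high for Ank1 (6.83), Kel (6.39) and Car2 (8.56). Ank1 stood low on control E8.75 replicate 1 (5.12), an array on which it was not above background.

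The knockout effect differed between E9.0 and E8.5 by the limma interaction for Kel (-2.79) and Car2 (-2.55), more negative at E9.0 in both. For Kel most knockout arrays of both stages were at background, so an E8.5 effect could hardly show.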

How the results depend on the processing

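The 6 members stayed called lower at E9.0 in all 35 alternatives (24 leaving out 1 array, 11 others), with the adjusted p reaching 0.0409 for Slc4a1 and 0.0371 for Tfrc, and none was called at E8.5 or E8.75 in any. Their median log2 difference was -2.60, against -1.85 with offset 50 and -1.70 in the deposited values. The slide as a block was not run, since no slide is named in the files used here. With the replicate block, 6 members and 1393 genes were called at E9.0, against 1454 without it, and 1 member for the interaction, where Car2 was no longer called (adjusted p = 0.0839).

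Across all 7 comparisons, 1393 of 1446 member values kept their direction and side of the threshold, 22 lost and 17 gained a call and 14 turned. None of the turned values was called. At E8.5, leaving out 1 array gave -1.79 to 0.24 for Slc4a1 (highest without control replicate 3) and -0.29 to 0.31 for Car2, with 0.05 and 0.08 without knockout replicates 1 and 2; at E8.75 it gave -0.027 to 0.18 for Tfrc. For the knockout stage change it gave -0.24 to 0.13 for Kel, -0.15 to 0.30 for Ank1 and -0.048 to 0.19 for Rhag, each lowest without E9.0 replicate 1. There Kel was also -0.046 with offset 50 and -0.035 with deposited values, and median scaling gave Rhag -0.027 and Tfrc -0.20. The cause was not tested.

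Genes called moved with the setting. At E8.5, with 1 called, there were 2 with offset 50, the deposited values or no filter, 0 with median scaling, 4 with the mean of a gene's probes, 7 without E8.75 and 9 with array weights. At E8.75, with 58 called, there were 34 with offset 50, 35 with deposited values, 5 with only the groups compared and 512 with weights. At E9.0, with 1454, there were 489 with median scaling, 2383 with only the groups compared and 3012 with weights. For the average, with 896, there were 205 with median scaling and 1868 with weights. For the interaction, with 93 genes and 2 members, there were 141 (offset 50), 140 (deposited values), 2 (median scaling), 180 (only the groups compared, or without E8.75) and 810 (weights) genes, and 0 (median scaling), 1 (no filter, or replicate block) and 4 (weights) members. The control stage change called 4714 genes with weights against 2911, and the knockout change 1 member with only the groups compared or without E8.75, against 0. Leaving out 1 array gave 1 to 4 genes at E8.5, 20 to 131 at E8.75, 1024 to 1989 at E9.0, 634 to 1170 (5 to 6 members) for the average, 37 to 168 (0 to 3 members) for the interaction, 2246 to 3467 (5 to 6 members) for the control and 2275 to 3500 (0 to 1 members) for the knockout change. Median scaling set the share of calls that were higher at 23.5% against 55.4% at E9.0, 28.3% against 57.3% for the average, 81.1% against 69.0% at E8.75, 30.7% against 46.1% for the control and 26.1% against 47.8% for the knockout change, and moved the median gene to -0.12 and -0.11 in those 2 stage changes. Members at background, and 4 arrays a group, limit the sizes.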
